A study of Mus musculus with 6 samples.

Results

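The genes described here encode the nuclear part of respiratory complexes II, III, IV and V of the mitochondrial inner membrane, together with cytochrome c. They were taken by name: symbols that begin with Sdh, Uqcr or Atp5, or with Cox and a digit, plus Cyc1 and Cycs, and a mean across the 18 libraries of no less than 10. The tissue isoform genes of complex IV (Cox4i1, Cox4i2, Cox6a1, Cox6a2, Cox7a1, Cox7a2, Cox8a and Cox8b) were left out. Of 54 matching symbols among 24391 gene entries, 49 reached the minimum. There were 8 genes of complex II (subunits and assembly factors), 9 of complex III and 1 for cytochrome c. A further 7 were of complex IV, 9 for the assembly of complex IV and 13 of complex V. The remaining 2, Atp5s and Atp5sl, were grouped with complex V by symbol.

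RNA was measured by short-read sequencing in cardiac ventricles of C57BL/6 mice that were wild type (WT) or carried a Klf15 loss of function (KO). KLF15 is a zinc finger transcription factor known for its part in the metabolism of amino acids and lipids. Ventricles were taken at postnatal day 10 (P10), 4 weeks (4w) and 20 weeks (20w), which gave 6 groups of 3 libraries. All mice had free access to food under a light/dark cycle, and no group received a treatment per the labels. Neither the way the loss of function was made nor the sex of the mice is given in the sources used here. The labels also leave unsaid if the 3 libraries per group are separate mice, so p-values measure only how these libraries spread, which may be technical.

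Complex II oxidises succinate to fumarate in the citrate cycle and passes the electrons to ubiquinone, without pumping protons. Complex III takes them from ubiquinol and hands them to cytochrome c, a small soluble carrier, and complex IV passes them on to oxygen. Complexes III and IV pump protons, and complex V, the ATP synthase, lets the protons back through its membrane part to drive ATP synthesis in its head. Heart muscle relies on this pathway for most of its ATP, and its mitochondria mature after birth as fatty acids become the main fuel. Subunits of complexes III, IV and V are also encoded by the mitochondrial genome, and those genes are not among the members.

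Between 9504538 and 29278351 reads per library were assigned to genes. The deposited values are read counts divided by 1 size factor per library (normalised counts), and each was tested as log2(value + 1) in limma with Benjamini-Hochberg adjustment over 13032 genes. Calls were made where the adjusted p was under 0.05, and fold changes and standard errors (SE) are on that log2 scale. Klf15 lay between 17.4 and 54.8 in the KO libraries and between 140 and 1283 in the WT libraries, lower in KO than in WT at every age. The second 4w KO library stood apart with 30.8% of its reads on the ribosomal RNA gene Rn45s, against at most 2.72% in any other. Skeletal muscle markers summed to 759 in the second 4w WT library and to at most 50.6 in any other. Atrial markers summed to 9602 in the third 20w KO library (3226 and 3511 in the others of its group) and to 4687 in the second P10 WT library (846 and 1337). None of the 10 cardiomyocyte markers was at 0 in any library. The P10 libraries held both Xist (4814 to 11077) and the Y-linked gene Ddx3y (525 to 1198), while later libraries held at most 9.40 for Xist and 2397 to 3756 for Ddx3y. The part of this difference in the age results was not tested.

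Promoter sequences are shown for the pair of members with the smallest adjusted p in KO and for the member with the highest value, as the windows in which a site for a KLF factor would be looked for. They are the 250 bases before the annotated start in RefSeq (GRCm38.p6), written 5′ to 3′ on the gene's strand. Capitals mark CCCCNCCC on either strand, a GC-rich box of the kind that KLF and SP factors bind. The windows are chr4:140961021-140961270 on the plus strand for Sdhb, chr5:139345167-139345416 on the minus strand for Cox19 and chr10:128083057-128083306 on the plus strand for Atp5b.
Sdhb: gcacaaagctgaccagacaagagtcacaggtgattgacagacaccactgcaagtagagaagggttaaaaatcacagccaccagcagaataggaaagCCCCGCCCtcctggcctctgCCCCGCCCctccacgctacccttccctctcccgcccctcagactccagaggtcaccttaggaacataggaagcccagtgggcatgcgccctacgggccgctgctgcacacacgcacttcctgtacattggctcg
Cox19: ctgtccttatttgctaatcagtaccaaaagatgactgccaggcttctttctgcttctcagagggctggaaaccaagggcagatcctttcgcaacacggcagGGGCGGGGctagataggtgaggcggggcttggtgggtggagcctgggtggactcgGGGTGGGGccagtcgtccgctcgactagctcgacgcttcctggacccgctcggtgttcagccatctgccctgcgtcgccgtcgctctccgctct
Atp5b: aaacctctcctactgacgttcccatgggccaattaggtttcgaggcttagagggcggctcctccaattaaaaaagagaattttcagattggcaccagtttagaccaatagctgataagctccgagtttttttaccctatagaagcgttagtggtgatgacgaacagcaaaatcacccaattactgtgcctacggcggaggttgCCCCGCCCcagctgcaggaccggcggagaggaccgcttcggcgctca

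Sdhb and Cox19 both hold 2 such boxes, and Atp5b holds 1. RefSeq promoters were found for 40 of 49 members (45 windows). The box was in 48.9% of these, in 45.4% of 12577 windows of tested genes and in 30.8% of all 32851 windows. Letters of other factors with known roles at respiratory genes were searched for on both strands. GCGCANGCG, for NRF1, was in 15.6% of the members' windows and 10.4% of those of tested genes. CCGGAAG, for ETS factors such as GABP, was in 28.9% and 12.8%, and AAGGTCA, for the ERR receptors, in 2.22% and 2.81%. None of these 3 was in the windows of Sdhb, Cox19 or Atp5b, and the motifs can overlap each other.

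In WT ventricles the genes of complexes II to V were higher at 4w than at P10 almost throughout. Of the 49 members, 42 rose and none fell, where 28.7% of all tested genes rose. The median log2 change of the members was 0.60, against -0.01 over all genes tested, and 47 of 49 members were above 0. Counts by edgeR and DESeq2 were 42 as well (3755 and 3619 of 13032 genes rose). All 8 complex II genes rose (median 0.72), as did 8 of 9 in complex III (0.60), cytochrome c (0.60) and 6 of 7 in complex IV (0.64). In complex V 12 of 13 rose (0.60), and so did Atp5s and Atp5sl. Among the assembly factors of complex IV, 5 of 9 rose (median 0.44). The 7 members that did not pass were Uqcrq (0.56), Cox7c (-0.26), Cox11 (0.15), Cox16 (0.83), Cox19 (-0.15), Cox20 (0.09) and Atp5g1 (0.37). With libraries scaled to a common total of reads, 26 of 49 members rose, where 1568 of 13042 tested genes rose. The all-gene median was then -0.26, while the members' median relative to all genes was 0.61 under both scalings.

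**Figure D1:**
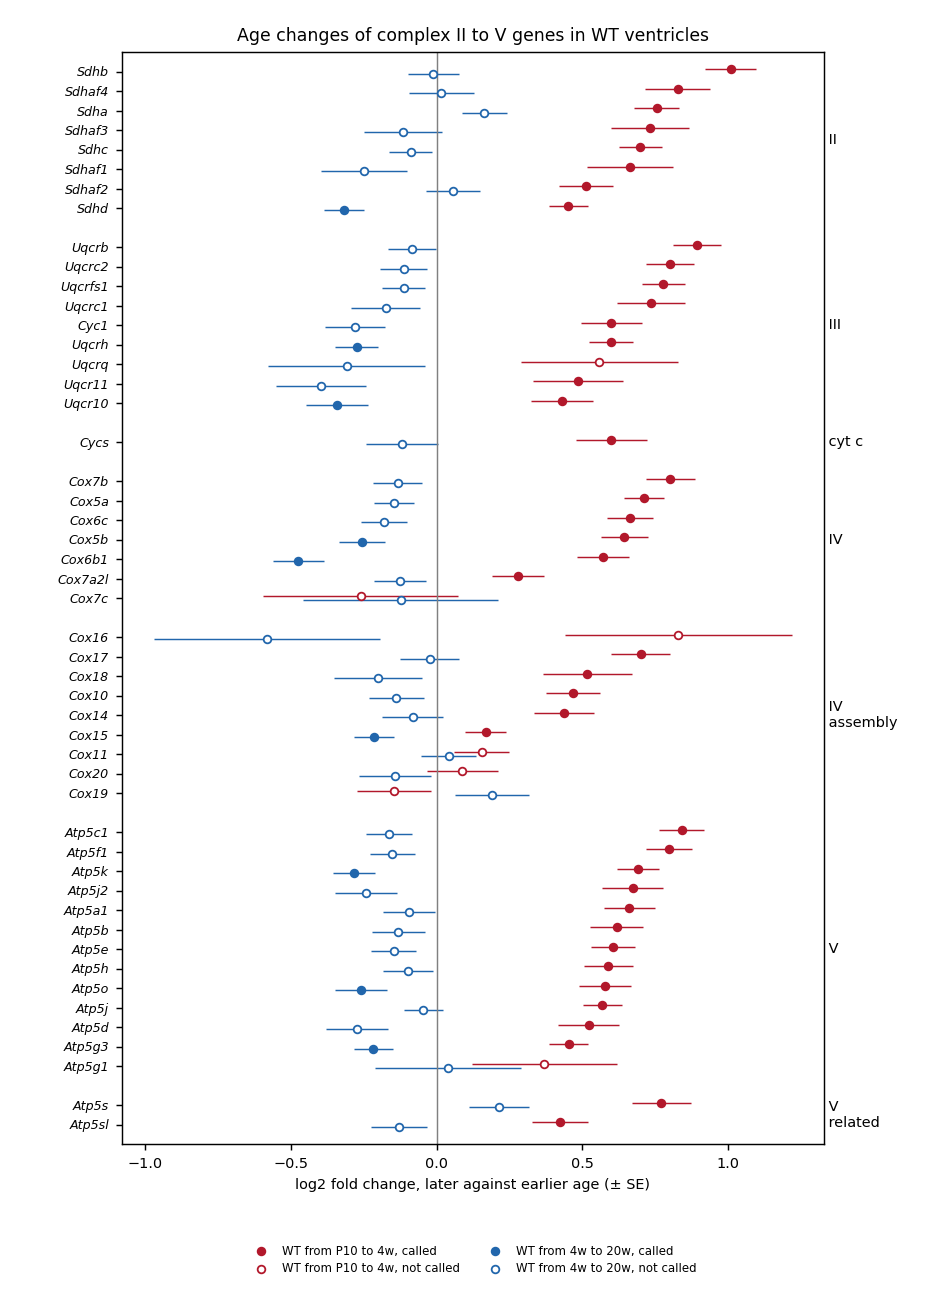
Log2 fold change ± SE of each member in WT ventricles, from P10 to 4w (red) and from 4w to 20w (blue), grouped by complex; filled points were called. From P10 to 4w 42 of 49 members were called higher, and from 4w to 20w 9 were called lower.

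Sdhb, the iron-sulphur subunit that carries electrons from the flavin of complex II towards ubiquinone, had the highest fold change among the members that rose. It stood at 4421, 5152 and 5443 in the P10 WT libraries and at 9499, 9880 and 10752 in the 4w WT libraries. Every 4w library was above every P10 library, a 2.01-fold rise (log2 1.01 ± 0.09 SE, adjusted p = 1.23e-08). Sdha, the flavoprotein that binds succinate, was the complex II gene with the highest value, and rose from 13140 to 14679 at P10 to 22658 to 24265 at 4w (log2 0.75, adjusted p = 7.73e-08). The membrane anchors Sdhc and Sdhd rose by 0.70 and 0.45. Among the assembly factors, Sdhaf4 rose by 0.83, Sdhaf3 by 0.73, Sdhaf1 by 0.66 and Sdhaf2, which helps to insert the flavin, by 0.51. Sdhaf3 had the lowest value of the complex, at 63.1 to 73.0 in the P10 WT libraries and 103 to 129 at 4w.

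In complex III the highest fold change was that of Uqcrb, which encodes a small subunit near the ubiquinone site. Its values were 955, 870 and 1021 at P10 and 1644, 1847 and 1794 at 4w, without overlap (0.89 ± 0.08 SE, adjusted p = 2.2e-08). In the GRCm38 annotation 62.8% of the Uqcrb transcript has a copy of at least 98% identity elsewhere, so its level is uncertain where reads were shared. The core gene Uqcrc2, highest in value, was 9078 to 10479 at P10 and 15840 to 17720 at 4w (0.80). The Rieske iron-sulphur subunit gene Uqcrfs1 rose by 0.78, Uqcrc1 by 0.74 and Cyc1, the cytochrome c1 that docks cytochrome c, by 0.60. The small subunit genes Uqcrh, Uqcr11 and Uqcr10 rose by 0.60, 0.49 and 0.43. Cycs, somatic cytochrome c, rose from 812, 732 and 1004 to 1078, 1377 and 1400 (0.60 ± 0.12 SE, adjusted p = 0.000317). All 4w libraries were above those of P10, but the closest pair stood at 1004 and 1078. That call was lost with common-total scaling (0.35, adjusted p = 0.0504).

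In complex IV, Cox7b led the rise, with 4313, 4317 and 5113 at P10 and 7457, 7873 and 8582 at 4w (0.80 ± 0.08 SE, adjusted p = 1.19e-07). The groups did not overlap. Cox7b lies on the X chromosome, and Xist differed between these ages as given above. Cox6c was the complex IV gene with the highest value, at 6281 to 7647 at P10 and 10368 to 11821 at 4w (0.66). Cox5a and Cox5b, the matrix-side subunits, rose by 0.71 and 0.64, and Cox6b1, which faces the intermembrane space, by 0.57. Cox7a2l, which links complex III and complex IV in supercomplexes, rose by 0.28. Of the assembly factors, the copper chaperone Cox17 rose by 0.70, the insertase Cox18 by 0.52, the haem A synthesis genes Cox10 and Cox15 by 0.47 and 0.17, and Cox14 by 0.44. Of those that did not pass, Cox11 delivers copper, Cox20 is a chaperone of a mitochondrially encoded subunit, Cox19 is described with the KO results, and Cox16 was too low for a narrow interval (10.3, 27.4 and 24.3 at P10, 43.3, 33.4 and 29.0 at 4w).

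In complex V, Atp5c1, the gamma subunit that forms the rotating shaft, led with 8155, 8269 and 8697 at P10 and 13599, 15709 and 15754 at 4w (0.84 ± 0.08 SE, adjusted p = 2.59e-08). Every 4w library was above every P10 library. Atp5b, the catalytic beta subunit, had the highest value of all members. It was 54999, 57647 and 58706 at P10 and 83890, 88516 and 90732 at 4w (0.62, adjusted p = 9.18e-06). The alpha subunit gene Atp5a1 rose by 0.66, and the stalk genes Atp5f1, Atp5h and Atp5j by 0.80, 0.59 and 0.57. Near-identical copies cover 80.1% of the Atp5h transcript and 43.4% of that of Atp5f1 in the GRCm38 annotation, so the levels of both are uncertain. Atp5o, the subunit that ties the stalk to the head, rose by 0.58. Of the small subunits of the central stalk, Atp5e rose by 0.60 and Atp5d by 0.52, and of the membrane part, Atp5k rose by 0.69 and Atp5j2 by 0.67. Atp5s, coupling factor B, rose by 0.77, and Atp5sl by 0.42. The GRCm38 annotation lists Atp5sl as Dmac2, so only its symbol places it with complex V here.

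The ring of c subunits in complex V can be made from 3 genes that encode the same mature protein. Per kilobase of annotated exon, the 4w WT value was 22702 for Atp5g3, 53.2 for Atp5g1 and 3.14 for Atp5g2. Almost all of the c ring signal was thus listed under Atp5g3. In the GRCm38 annotation, 88.2% of the Atp5g2 transcript and 14.4% of the Atp5g1 transcript have a near-identical copy, and 0% of Atp5g3. How the read counter treated shared reads is not given in the sources used here, so the levels of Atp5g1 and Atp5g2 are uncertain. Atp5g3 rose by 0.45 from P10 to 4w (11520 to 12480 at P10, 15570 to 16955 at 4w). Atp5g1 held 157, 192 and 213 at P10 and 129, 326 and 329 at 4w, with the first 4w library below all P10 libraries.

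The minimum mean of 10 bore on a few genes. Cox16 and Cox7c were the members nearest to it, with means of 28.9 and 14.1. Just outside it were Cox6b2 (7.9), Atp5l (5.9), Atp5g2 (2.5) and Cox7b2 (2.1), and Cox8c was at 0. In the GRCm38 annotation near-identical copies cover 57.4% of the Atp5l transcript and 32.9% of that of Cox7c. Their low values may thus understate their levels, which was not tested. Such copies also cover 45.1% of Cox5b, 38.4% of Uqcr11 and 34.2% of Cycs, so those levels are uncertain too. Cox6b2, the testis isoform of a complex IV subunit, was singled out after its values were seen. It was at 5.55, 3.57 and 5.80 in 4w WT libraries and 1.69, 0 and 0.524 in 4w KO libraries, and at 9.40, 6.58 and 23.5 against 1.70, 2.09 and 2.85 at 20w. Its KO libraries lay below the WT libraries at both ages, while at P10 they overlapped (13.1, 29.0 and 10.5 in WT, 5.16, 12.6 and 7.67 in KO).

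Between 4w and 20w the members changed less and in the other direction. In WT, 9 of 49 fell and none rose, where 11.8% of all tested genes fell. The members' median was -0.14, against -0.02 over all genes, and 42 of 49 were below 0. The 9 were spread over the complexes: Sdhd, Uqcr10, Uqcrh, Cox5b, Cox6b1, Cox15, Atp5g3, Atp5k and Atp5o, with log2 changes from -0.47 to -0.21. Cox6b1 fell from 9464, 9800 and 9620 to 7346, 7107 and 6383 (-0.47 ± 0.09 SE, adjusted p = 0.000704), without overlap. Sdhd fell from 8549, 9249 and 9672 to 7492, 7252 and 7290 (-0.32 ± 0.07 SE, adjusted p = 0.00212), again without overlap. Sdhd is 1 of the pair of membrane anchors, and its partner Sdhc did not pass the test (-0.09, adjusted p = 0.413).

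Atp5k, subunit e of the membrane part, where ATP synthase dimers form, fell from 3166, 3382 and 3497 to 2699, 2752 and 2796 (-0.28, adjusted p = 0.0079). Uqcr10, a small complex III subunit, was at 4278, 4565 and 5104 at 4w and 3659, 3520 and 3805 at 20w (-0.34, adjusted p = 0.0242). Both sets of libraries stood apart between the ages. The Uqcr10 call was lost without the second or the third 4w WT library or the first or second 20w WT library (adjusted p = 0.0528 to 0.103). The number of members called lower was 3 without the third 4w WT library (1323 of 13043 genes lower) and 4 without the second (1150 of 13046). It was 5 without the second 20w WT library (1086 of 13035) and 3 without the 4 libraries highest in Rn45s (860 of 13061). Without those 4 libraries the calls of Atp5k (adjusted p = 0.0822) and Uqcr10 (0.142) were lost.

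The members took 2.18% to 2.40% of the reads outside Rn45s in P10 WT libraries, 3.06% to 3.11% at 4w and 2.53% to 2.59% at 20w. In KO libraries the shares were 2.05% to 2.43%, 2.70% to 3.04% and 2.45% to 2.67%. The share was thus highest at 4w in both genotypes. Cell type markers moved over the same ages. The summed value of the 10 cardiomyocyte markers was 1.50e+06 to 1.85e+06 in P10 WT libraries, 2.19e+06 to 2.51e+06 at 4w and 2.90e+06 to 3.06e+06 at 20w. Their median log2 change was 0.58 from P10 to 4w (8 called higher) and only 0.04 from 4w to 20w (2 called higher and 2 lower). The summed value of 8 fibroblast markers was 76788 to 88049, 26066 to 31820 and 14886 to 15515, and 7 of 8 fell from P10 to 4w. Endothelial markers summed to 24456 to 25215 at P10 and 15609 to 19277 at 4w, and 6 of 8 fell. Of the macrophage markers, 7 of 7 rose from P10 to 4w (1559 to 1872, then 3443 to 4082; median 0.86) and 5 of 7 fell from 4w to 20w (to 2600 to 2912; median -0.53). In bulk tissue, fewer cells of a type and less RNA per cell cannot be told apart, and the part of these markers in the members' age changes was not tested.

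Loss of Klf15 left most complex II to V genes without a call. At P10 1 of 49 members was lower and none higher, where 2.26% of all tested genes were called. At 4w 1 was lower (5.65% of all genes called), and at 20w 1 was lower and 1 higher (7.49%). Averaged over the 3 ages, 3 were lower and 1 higher (10.4%). The members' median log2 change was -0.09 at P10, -0.05 at 4w and 0.04 at 20w, against -0.01, 0.00 and 0.01 over all genes. A 95% confidence interval within 1.5-fold either way was obtained for 43 members at P10, 43 at 4w and 44 at 20w.

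**Figure D2:**
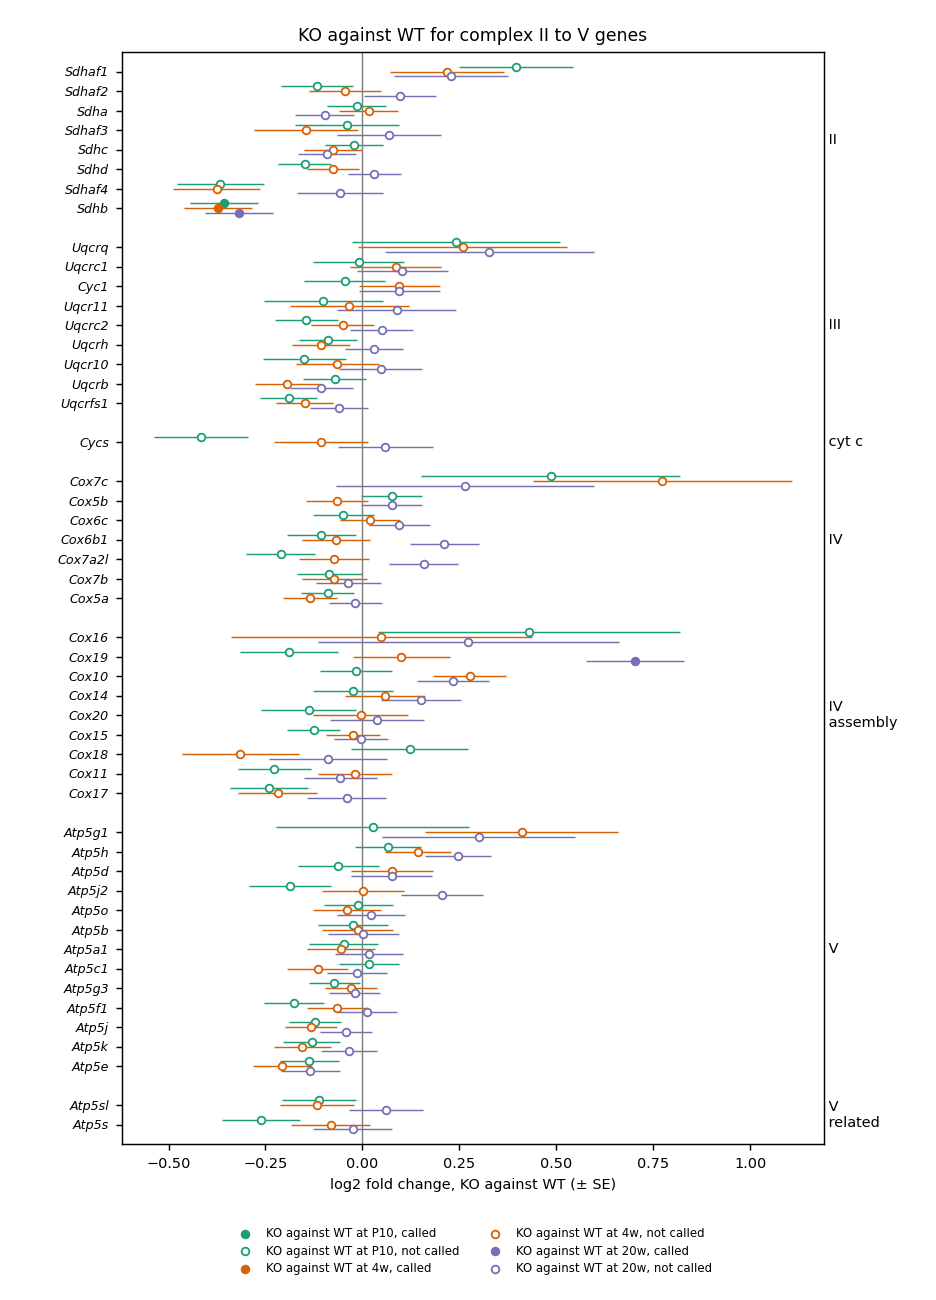
Log2 fold change ± SE of each member in KO against WT at P10 (green), 4w (orange) and 20w (purple), grouped by complex; filled points were called. Sdhb was called lower at all 3 ages and Cox19 called higher at 20w.

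Sdhb was lower in KO ventricles at every age. At P10 it was 4421, 5152 and 5443 in WT and 4471, 3708 and 3558 in KO, where the first KO library lay above the lowest WT library (-0.36 ± 0.09 SE, adjusted p = 0.039, 1.28-fold). At 4w the values were 9499, 9880 and 10752 against 7188, 7821 and 8265 (-0.37 ± 0.09 SE, adjusted p = 0.0144, 1.295-fold), and all KO libraries were below all WT libraries. At 20w they were 9926, 9860 and 10081 against 7941, 8222 and 7796 (-0.32 ± 0.09 SE, adjusted p = 0.0314, 1.25-fold), again without overlap. The average over the ages was -0.35 ± 0.05 SE (adjusted p = 9.5e-05, 1.27-fold).

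The 3 single-age calls of Sdhb were close to the threshold. At P10 the call was lost without the second or the third P10 WT library, the second or the third P10 KO library, the second 4w WT library, or the second or the third 20w WT library (adjusted p = 0.0517 to 0.203). At 4w it was lost without the third WT or the first KO library (0.0764 and 0.0926). At 20w it was lost without any 1 of the 6 libraries of that age (0.0501 to 0.107), while the averaged effect was called without any 1 library (highest adjusted p = 0.000352). Without the second 4w KO library, the one with most Rn45s, the effect at 4w was -0.38 (adjusted p = 0.0465). The P10 and 20w calls were also lost with common-total scaling, with no filter, and without the 4 libraries highest in Rn45s (highest adjusted p = 0.427 at P10 and 0.31 at 20w), and the 4w call without those 4 libraries (0.148). The averaged effect was called under all 7 other settings and without each library in turn (highest adjusted p = 0.00416).

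The KO effect on Sdhb did not differ between ages in the test of the difference. It was -0.02 between P10 and 4w (95% interval -0.28 to 0.25, adjusted p = 0.984), 0.04 between P10 and 20w (-0.22 to 0.30, adjusted p = 0.909) and 0.05 between 4w and 20w (-0.21 to 0.32, adjusted p = 0.914). These intervals still allow changes nearly as large as the effect itself. In the 4w and 20w KO libraries Sdhb lay above every P10 library of either genotype.

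The partner subunits of complex II did not pass the test in KO. The averaged effect was -0.03 for Sdha (95% interval -0.12 to 0.06, adjusted p = 0.712), -0.06 for Sdhc (-0.15 to 0.03, adjusted p = 0.41) and -0.06 for Sdhd (-0.15 to 0.02, adjusted p = 0.332). At 4w Sdha was 22658, 24001 and 24265 in WT and 22736, 23954 and 25053 in KO, and the groups overlapped. To set the subunits against each other within a library, Sdhb was divided by the sum of Sdha, Sdhc and Sdhd, which does not depend on how libraries are scaled. This ratio was chosen after the values were seen and has no test.

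At P10 there were 18.1, 21.7 and 21.2 units of Sdhb per 100 units of the partner sum in WT, against 17.98, 15.7 and 15.7 in KO. At 4w the ratio was 25.5, 24.9 and 26.6 in WT against 19.7, 20.0 and 20.5 in KO. At 20w it was 24.7, 24.7 and 25.7 against 20.99, 20.2 and 22.1. The KO libraries were below the WT libraries at each age, narrowly so at P10. The means were 20.3 ± 1.93 and 16.4 ± 1.33 at P10, 25.7 ± 0.845 and 20.1 ± 0.428 at 4w, and 25.03 ± 0.568 and 21.1 ± 0.984 at 20w (SD, n = 3 libraries).

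**Figure D3:**
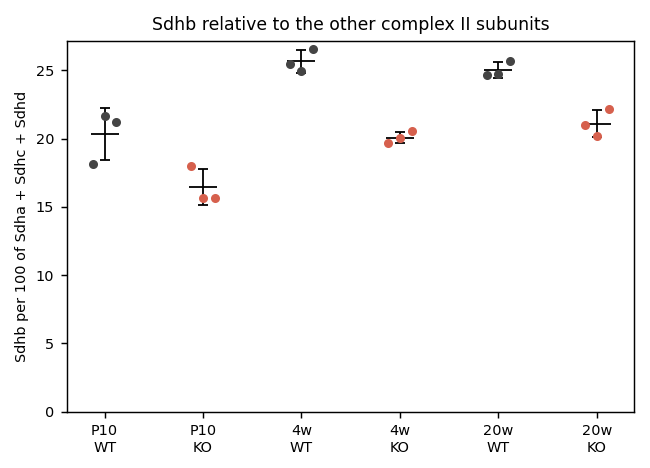
Sdhb per 100 units of the summed values of Sdha, Sdhc and Sdhd in every library (points, WT grey and KO red), with the mean ± SD of 3 libraries. KO libraries lay below the WT libraries of their age, by the widest gap at 4w (at most 20.5 against at least 24.9).

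Of the complex II assembly factors, Sdhaf4 and Sdhaf1 moved in opposite directions when averaged over the ages. Sdhaf4, which acts on the flavin-bound catalytic subunit before it joins Sdhb, was at 257, 322 and 320 in P10 WT and 262, 224 and 210 in P10 KO. At 4w it was 579, 512 and 500 in WT and 390, 400 and 435 in KO, with all KO libraries lower. At 20w the groups overlapped, at 515, 531 and 560 in WT and 584, 446 and 521 in KO. Averaged over the ages Sdhaf4 fell by 0.27 (± 0.06 SE, adjusted p = 0.0099). No single age was called (-0.37 at P10, adjusted p = 0.0997; -0.38 at 4w, adjusted p = 0.0528; -0.06 at 20w, adjusted p = 0.814), and the averaged call was lost without the 4 libraries highest in Rn45s (adjusted p = 0.0916).

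Sdhaf1, which helps to place the iron-sulphur clusters in Sdhb, was 122, 202 and 161 in P10 WT and 238, 216 and 177 in P10 KO. It was 251, 254 and 249 in 4w WT and 261, 300 and 318 in 4w KO, and 243, 191 and 204 in 20w WT and 252, 254 and 238 in 20w KO. All KO libraries were above WT at 4w, and the groups overlapped at P10 and 20w. The average was 0.28 ± 0.08 SE (adjusted p = 0.039). That call was lost without any 1 of 12 libraries: the first or the third P10 WT, the first or second P10 KO, any of the 4w WT, the second or the third 4w KO, the second or the third 20w WT, and the second 20w KO library (adjusted p = 0.0528 to 0.083). It was also lost with common-total scaling (0.331), with no filter (0.0624) and without the 4 libraries highest in Rn45s (0.232). Sdhaf1 and Sdhaf4 each overlap a gene on the opposite strand in the GRCm38 annotation. The strand setting of the counts is not given in the sources used here, so reads of the partners cannot be told apart. The same limit holds for Sdhaf2, Uqcrb, Uqcrc2, Cox5a, Cox10, Cox11, Cox15, Atp5a1, Atp5f1, Atp5j and Atp5o. Cox16, Cox17 and Atp5o overlap an entry on the same strand, so their levels are uncertain too.

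**Figure D4:**
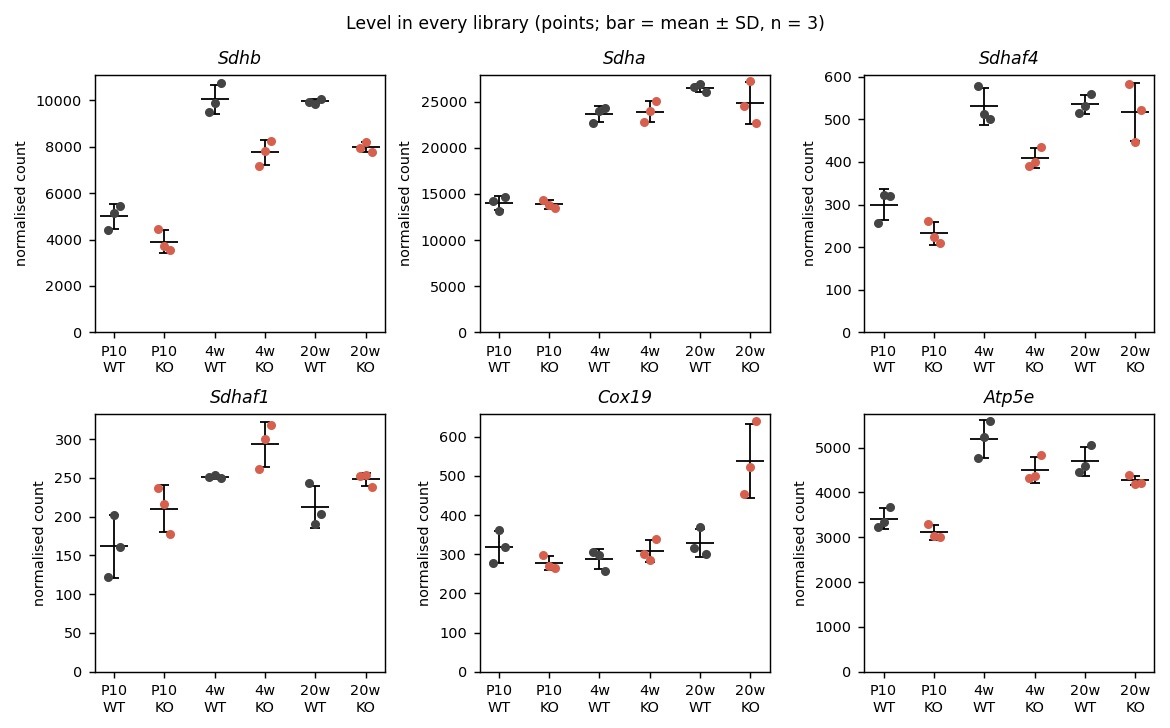
Normalised counts of Sdhb, Sdha, Sdhaf4, Sdhaf1, Cox19 and Atp5e in every library (points, WT grey and KO red), with the mean ± SD of 3 libraries. Sdhb was lower in KO at each age beside similar Sdha values, and Cox19 was highest in the 20w KO libraries (453 to 640).

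Cox19 was the member that rose in KO at 1 age. It encodes a small protein of the intermembrane space that takes part in copper delivery to complex IV. At 20w it was 316, 368 and 300 in WT and 453, 522 and 640 in KO, so that every KO library was above every WT library (0.70 ± 0.13 SE, adjusted p = 0.00125, 1.63-fold). At P10 the values were 277, 361 and 318 against 299, 271 and 265 (-0.19, adjusted p = 0.551), and at 4w 306, 298 and 257 against 300, 284 and 340 (0.10, adjusted p = 0.758). Both earlier ages overlapped. Any link between the CCCCNCCC boxes in the promoter windows and the KO effects was not tested. The 20w call was kept without any 1 library (highest adjusted p = 0.0127) and under the 7 other alternatives tried (highest adjusted p = 0.0199).

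The KO effect on Cox19 at 20w exceeded that at P10 by 0.89 ± 0.18 SE (adjusted p = 0.00709), and this was the only member called among differences between ages. For 20w minus P10, 1 of 49 members was called (3.74% of all genes). For 4w minus P10, limma called none (1.26% of all genes), and none was called by edgeR or DESeq2. An unadjusted limma p under 0.05 was found there for 1 of 49 members and 1652 of 13032 genes. For 20w minus 4w limma called none (0.192% of all genes), and again none was called by edgeR or DESeq2. There the unadjusted limma p was under 0.05 for 2 of 49 members and 1542 of 13032 genes. The difference of Cox19 between 20w and 4w was 0.60 and did not pass (adjusted p = 0.145). With common-total scaling the 20w minus P10 difference was 0.89 with an adjusted p = 0.0777.

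The related copper and haem genes of complex IV did not pass in KO at any age. For Cox17 the averaged effect was -0.17 (adjusted p = 0.0757), and for Cox10 it was 0.16 (adjusted p = 0.0567). Cycs was -0.42 at P10 (adjusted p = 0.0875), with 812, 732 and 1004 in WT and 650, 681 and 566 in KO, and DESeq2 called it there. All 3 KO libraries were below the WT libraries at that age. At 4w it was -0.11 and at 20w 0.06, where the groups overlapped.

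In complex V the averaged effect was called for Atp5e, the epsilon subunit of the central stalk. It was 3223, 3343 and 3683 in P10 WT and 3299, 3017 and 3000 in P10 KO, 4756, 5243 and 5593 against 4317, 4356 and 4825 at 4w, and 4445, 4577 and 5047 against 4388, 4194 and 4219 at 20w. The groups overlapped at P10 and 4w and were apart at 20w by a narrow margin. The average fell by 0.16 (± 0.04 SE, adjusted p = 0.0238, 1.12-fold). It was lost without the third P10 WT, the third P10 KO, the third 4w WT or the third 20w WT library (adjusted p = 0.0514 to 0.0604), with common-total scaling (0.0676) and without the 4 libraries highest in Rn45s (0.161). None of the other 12 complex V genes was called in KO against WT at any age or on average; the lead gene Atp5b stood at 80042 ± 2066 in WT and 80282 ± 5364 in KO at 20w (SD, n = 3 libraries).

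Among complex III genes no member was called in KO, but Uqcrq, which encodes a small subunit that binds ubiquinone, varied in an uneven way. It was named after its values were seen. In WT it was 1944, 2427 and 2169 at P10, 3112, 3238 and 3240 at 4w, and 2786, 2429 and 2541 at 20w. In KO it was 3834, 2098 and 2105 at P10, 2848, 3250 and 6039 at 4w, and 2335, 5349 and 2722 at 20w. In each KO group 1 library was far above the other 2, which lay near the WT range. These were the first P10, the third 4w and the second 20w KO library. In 18 of 49 members, Uqcrq among them, these same libraries were the highest of their KO groups. Examples are Uqcr11 (2986, 4252 and 3974), Uqcrc1 (9669, 16782 and 15746), Cyc1 (7382, 11624 and 10367) and Atp5d (4240, 6562 and 6139). The share among all tested genes was not counted, so a pattern of the members cannot be told apart from one of the libraries. The first P10 and the third 4w KO library held the most reads of all libraries (29278351 and 27094216). The second 20w KO library held 14982604, fewer than the first of its group (17733942). The part of read depth in this pattern was not tested. The averaged KO effect on Uqcrq was 0.28 (adjusted p = 0.292).

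**Figure D5:**
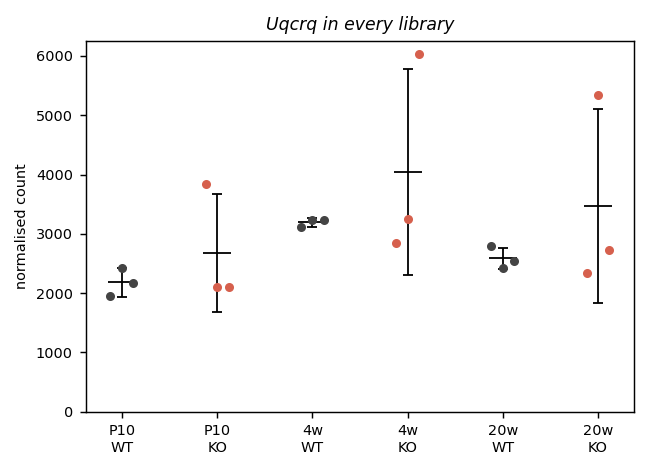
Normalised counts of Uqcrq in every library (points, WT grey and KO red), with the mean ± SD of 3 libraries. Each KO group holds 1 high library (3834, 6039 and 5349) beside 2 near the WT values.

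At P10 40 of 49 members had a KO effect below 0, where 47.3% of all tested genes were above 0. An unadjusted p under 0.05 was found for 11 of 49 members there and for 1837 of all 13032 genes. The 11 became 4 without the third P10 KO library (1428 of 13019 genes) and 5 without the third P10 WT library (1365 of 13031). Without the first P10 KO library the members' count was 13 (1637 of 13024 genes). At 20w 31 of 49 members were above 0 (51.5% of all genes), but without the second 20w KO library 24 were above and 25 below. The KO effect at 20w minus that at P10 was above 0 for 40 of 49 members, with a median of 0.13 against 0.02 over all genes (52.8% of all genes above 0). The same difference was above 0 for 32 of 35 complex I subunits (median 0.18, none called) and 7 of 7 macrophage markers (0.57, 1 called). It was also above 0 for 22 of 22 assembly factors outside the name rule (0.29), where 2 were called, Coa5 and Cmc2. The same held for 11 of 14 citrate cycle genes (0.11) and 6 of 8 fibroblast markers (0.23). Other lists went the other way: 2 of 10 cardiomyocyte markers (-0.08) and 2 of 8 endothelial markers (-0.09) were above 0. So were 2 of 8 smooth muscle and pericyte markers (-0.14, 1 called lower) and 7 of 16 regulators of mitochondrial biogenesis (-0.01, 1 called higher). For Sdhb this difference was 0.04. For 4w minus P10 the sign depended on the scaling. With the deposited size factors 31 of 49 members were above 0 (53.7% of all genes). With a common total 5 were above 0 (19.3% of all genes), and the all-gene median was -0.22. Relative to the all-gene median the members' own median was 0.02 under both scalings. The common total counts reads on Rn45s, which were 30.8% of the second 4w KO library. The part of that library in the common-total results for 4w KO was not tested.

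Other genes of the pathway were taken from lists. Of 35 tested complex I subunit genes, which encode the NADH-oxidising entry to the chain, 34 rose in WT from P10 to 4w (median 0.72) and 6 fell from 4w to 20w (median -0.14). In KO none was called at P10 or 20w, and Ndufa3 was lower at 4w (-0.24, adjusted p = 0.0459). Of 14 citrate cycle genes all rose from P10 to 4w. In KO 1 was called, Suclg2, a subunit of the enzyme that makes the succinate complex II oxidises. It was 1210, 1171 and 1204 in 4w WT and 909, 964 and 882 in 4w KO (-0.38, adjusted p = 0.00438), and 1544, 1554 and 1528 against 1224, 1182 and 1063 at 20w (-0.42, adjusted p = 0.00146). Its KO libraries lay below those of WT at both ages.

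Of 22 tested assembly factors outside the name rule, 3 fell in KO at P10 and none was called at 4w or 20w. Lyrm7, a chaperone of the Rieske subunit of complex III, fell from 142, 151 and 170 to 60.4, 71.0 and 63.9 at P10 (-1.23 ± 0.19 SE, adjusted p = 0.000764). It was also called lower when averaged over the 3 ages (-0.79 ± 0.11 SE, limma adjusted p = 4.78e-05). Its client gene Uqcrfs1 did not pass at P10 (-0.19, adjusted p = 0.221). Cmc2 and Coa5, which act in complex IV assembly, fell by 0.47 and 0.26 at P10.

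Of 16 regulators of mitochondrial biogenesis none was called in KO at P10. At 4w the coactivators Pprc1 (0.67, adjusted p = 0.00182) and Ppargc1b (0.58, adjusted p = 0.0315) were higher, and at 20w the fatty acid receptor Ppara was lower (-0.48, adjusted p = 0.00839). Of 6 further genes of the ATP synthase and its use, Slc25a5, an ADP/ATP carrier, and Atpif1, an inhibitor of the synthase, rose by 0.41 and 0.35 in KO at 20w. The summed cardiomyocyte markers also differed at 4w, at 2.72e+06 to 2.87e+06 in KO against 2.19e+06 to 2.51e+06 in WT. Of the 10, 1 was called and 7 were above 0, and their median log2 change was only 0.04. Fibroblast markers were 22144 to 25301 in KO against 26066 to 31820 in WT at that age, with 2 of 8 lower. At P10 smooth muscle and pericyte markers summed to 28410 to 31516 in KO against 24646 to 25937 in WT, with 1 of 8 higher, and macrophage markers to 1441 to 1551 against 1559 to 1872. At 20w macrophage markers summed to 2955 to 3437 in KO against 2600 to 2912 in WT. In limma none of them was called at P10 or 20w. An unadjusted p under 0.05 was found for 2 of 7 at P10 (1837 of 13032 genes) and 3 of 7 at 20w (2783 of 13032). The part of these markers in the members' KO values was not tested.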

How the data were processed

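The deposited table holds a signal for each gene and library. Per the file headers and values, it is the number of reads after division by a factor for library size. Per the submitters' processing notes, Bowtie2 2.0, DESeq2 and the build mm9 were used, without role or order. The sources used here do not give the read counter, annotation or strand setting. Every deposited value was a whole multiple of the step of 1 read, which gave whole-number reads for 100.0% of values within 0.001 reads.

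Values were tested as log2(value + 1) with limma 3.58.1 (R 4.3.3) in 1 model of 6 group means over 18 libraries, moderated by empirical Bayes with a mean trend, two-sided. On this scale a fold is understated where values are low. Benjamini-Hochberg adjustment ran over 13032 genes with a mean of at least 10, called at 0.05. The limma calls for KO against WT were 295, 736 and 976 genes at P10, 4w and 20w. On the recovered reads, edgeR 4.0.16 (quasi-likelihood test, TMM) called 515, 705 and 842, and DESeq2 1.42.0 called 561, 850 and 954.

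Other alternatives were scaling to a common total of reads (Rn45s included), a pseudocount of 5, no filter and a replicate block. Each library was left out in turn, and the 4 libraries highest in Rn45s were left out together. GENCODE M21 (GRCm38) gave exon lengths, overlaps and copies (blastn 2.17.0, at least 50 bases at 98% identity), and 36 of 49 members had no copy. RefSeq (GRCm38.p6) gave the promoters. This build differs from that of the counts, so it was used for annotation only. The members, lists and tests were chosen with earlier results of these data known, so they are not independent of them. Members named with values in every library were those called in KO or in a difference between ages, those with the largest called change per complex between ages, and the highest and lowest in value per complex. From other lists up to 3 called genes were named per comparison.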

Additional observations from a re-analysis of the deposited data

Results flagged for a closer look

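The KO effect on Cox19 differed between ages in a test of the difference itself. At 20w minus P10 it was 0.8931 on the log2 scale (95% interval 0.52 to 1.26, limma adjusted p = 0.00709), with effects of -0.19 at P10 and 0.70 at 20w. All 3 KO libraries were above all 3 WT libraries at 20w, and the groups overlapped at P10. The adjusted p ran from 0.00263 to 0.0251 when each library was left out, and was 0.0777 with libraries scaled to a common total.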

How the results depend on the processing

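Counts of called members held within 1.5 times for many alternatives, with these exceptions. With libraries scaled to a common total, the counts were 0 at P10, 2 at 4w, 1 at 20w, 2 averaged, 26 from P10 to 4w and 0 for 20w minus P10. Of 13042 genes, 108, 615, 407, 821, 6382 and 160 were called there in either direction. With no filter they were 0 at P10 and 1 at 20w (183 and 851 of 19425 genes). With DESeq2 they were 2 at P10, 2 at 4w and 7 averaged (561, 850 and 1460 of 13032 genes). Without the 4 libraries highest in Rn45s they were 0, 0, 1 and 1 for P10, 4w, 20w and the average, and 3 from 4w to 20w. Of 13061 genes, 193, 212, 473, 705 and 1752 were called there. When each library was left out, the counts ran from 0 to 2 at P10 (2 without the first P10 WT library), 0 to 2 at 4w, 1 to 2 at 20w, 2 to 10 averaged, 40 to 43 from P10 to 4w, 3 to 12 from 4w to 20w, and 1 to 3 for 20w minus P10 (3 without the first P10 WT library). Without the first P10 WT library, 295 of 13030 genes were called at P10 and 550 for 20w minus P10. The averaged count was 10 without the first 20w KO library (1755 of 13040 genes) and 7 without the second P10 WT library (1305 of 13010). It was 2 without the third P10 WT (1054 of 13031) or the third 20w WT library (1138 of 13035). For 4w it was 0 without the third 4w WT (503 of 13043 genes) or the first 4w KO library (374 of 13042). It was 2 without the first P10 WT (738 of 13030), first P10 KO (750 of 13024), first 20w KO (823 of 13040) or second 20w KO library (823 of 13044).

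Replicate numbers did not pair the libraries: 1 of 9 same-numbered pairs had a correlation over 0.1 (range -0.245 to 0.123). With a replicate block the counts were 0 at P10, 0 at 4w, 1 at 20w and 2 averaged (171, 470, 679 and 1020 of 13032 genes). For the WT age comparisons they were 33 from P10 to 4w and 0 from 4w to 20w (4512 and 1035 of 13032 genes). The block model set fitted levels of the first replicates against each other there, not group means. Those age counts are thus no check of the age changes above. Under the block the single-age calls of Sdhb were lost (adjusted p = 0.126, 0.0623 and 0.0957 at P10, 4w and 20w), as were the averaged calls of Sdhaf1 (0.072) and Atp5e (0.0564). No named result reversed. Of the named genes' values, 388 were on the same side of the threshold and 62 were no longer past it. These values include the age comparisons under the block. The cause of these changes was not tested. Intervals cover the spread among 3 libraries per group, and Cox7c and Cox16, at means of 14.1 and 28.9, had intervals wider than 1.5-fold.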
